A study of Mus musculus with 6 samples.

Results

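Genes for the synthesis of cholesterol and fatty acids were examined in cultured calvarial preosteoblasts, the precursors of bone-forming osteoblasts, from 3-day-old mice. The 34 genes were taken by name from a fixed list of sterol synthesis enzymes, a sterol carrier, regulators of the SREBP transcription factors and fatty acid synthesis enzymes. All 34 were found among the 17001 rows of the deposited table, and all 34 passed the filter on low values (FPKM not under 1 in 3 or more libraries) with 11590 rows in all. The control group held 3 libraries of *Nell2* fx/fx cells and the cKO group held 3 libraries of Col1-cre; *Nell2* fx/fx cells, so both groups carried the floxed allele and differed by the Cre transgene. Cre was driven by a Col1a1 promoter fragment, which is active in the osteoblast lineage. The cells were grown in α-MEM with serum, and the labels do not say whether the libraries of a group came from separate animals. The p-values therefore measure the spread between these libraries, which may be technical.

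Cholesterol is built from acetyl-CoA through mevalonate, isoprenoid units, squalene and lanosterol, while fatty acids are built from the same acetyl-CoA by carboxylation, chain synthesis, elongation and desaturation. Both routes are under the control of the SREBP factors. These are held in the endoplasmic reticulum with SCAP by the INSIG proteins when sterols are plentiful, and are cleaved and sent to the nucleus when sterols are scarce. In bone, the mevalonate route is known as the target of the nitrogen-containing bisphosphonate drugs, which inhibit farnesyl diphosphate synthase.

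The promoters of 27 of the 34 genes were found in a RefSeq table of GRCm38.p6 (35 start sites), and the 200 bases just before each start site were searched on both strands for motifs known from SREBP target genes. The sterol regulatory element TCACNCCAC was found in 1 of the 35 windows (2.86%), that of *Hmgcs1*, and in 0.858% of the 32851 windows of the whole table. The NF-Y box CCAAT was found in 21 of the 35 windows (60%), from 20 genes, against 29.3% of all windows. The E-box CACGTG was found in 6 windows (17.1%) against 5.26% of all, and the GC box GGGCGG in 24 (68.6%) against 31% of all. NF-Y and the GC-box factor Sp1 are known to act beside SREBP. A match describes the letters of the window and is not a measured binding site, and start sites of 1 gene can share bases.

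The windows below are those of the gene with the sterol regulatory element, of 4 genes with lower values in the cKO libraries and of 2 sterol genes without them. Each is printed from 5′ to 3′ on the strand of its gene, with the sterol regulatory element, NF-Y boxes and E-boxes of either strand in capitals.
*Hmgcs1* chr13:119690151-119690350 (plus strand): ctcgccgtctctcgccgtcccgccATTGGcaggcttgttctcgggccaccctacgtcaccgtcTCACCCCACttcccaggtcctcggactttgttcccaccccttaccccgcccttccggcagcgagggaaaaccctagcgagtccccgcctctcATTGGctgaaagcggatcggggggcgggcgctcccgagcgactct
*Mvk* chr5:114444069-114444268 (plus strand): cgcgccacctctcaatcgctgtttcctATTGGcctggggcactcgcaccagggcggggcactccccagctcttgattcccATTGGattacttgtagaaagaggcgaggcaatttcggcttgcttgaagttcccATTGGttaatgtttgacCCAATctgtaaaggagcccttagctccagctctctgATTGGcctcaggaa
*Lss* chr10:76531405-76531604 (plus strand): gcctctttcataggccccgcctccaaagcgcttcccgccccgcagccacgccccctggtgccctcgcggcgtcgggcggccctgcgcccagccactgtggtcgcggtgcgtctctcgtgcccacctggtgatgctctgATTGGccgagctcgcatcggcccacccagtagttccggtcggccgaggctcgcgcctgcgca
*Nsdhl* chrX:72918321-72918520 (plus strand): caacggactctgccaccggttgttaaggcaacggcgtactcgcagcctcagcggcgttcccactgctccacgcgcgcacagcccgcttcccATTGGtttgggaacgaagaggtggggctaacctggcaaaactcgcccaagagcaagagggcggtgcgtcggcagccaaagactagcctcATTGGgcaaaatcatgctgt
*Fasn* chr11:120824548-120824747 (minus strand): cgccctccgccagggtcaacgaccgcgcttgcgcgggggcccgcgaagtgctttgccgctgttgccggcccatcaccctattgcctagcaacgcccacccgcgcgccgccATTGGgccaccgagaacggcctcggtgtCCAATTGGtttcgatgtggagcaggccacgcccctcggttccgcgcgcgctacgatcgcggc
*Ebp* chrX:8193513-8193712 (minus strand): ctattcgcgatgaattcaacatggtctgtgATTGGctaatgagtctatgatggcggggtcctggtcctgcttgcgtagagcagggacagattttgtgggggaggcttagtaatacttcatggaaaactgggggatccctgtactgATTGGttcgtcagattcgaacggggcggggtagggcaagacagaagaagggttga
*Tm7sf2* chr19:6067851-6068050 (minus strand): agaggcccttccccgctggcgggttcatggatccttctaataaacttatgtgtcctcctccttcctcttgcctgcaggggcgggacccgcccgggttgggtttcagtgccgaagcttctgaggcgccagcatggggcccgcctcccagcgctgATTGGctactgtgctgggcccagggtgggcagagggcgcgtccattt
*Mvk* held 5 NF-Y boxes, *Fasn* 3 (overlapping in one place), *Hmgcs1*, *Nsdhl* and *Ebp* 2 each, and *Lss* and *Tm7sf2* 1 each. *Ebp* and *Tm7sf2*, whose expression did not follow that of the other sterol genes, are thus among the genes with boxes. A relation between the boxes and expression was not tested. The window of *Acat2*, the gene with the largest difference, held a GC box and none of the other motifs. Among other genes with lower values, the window of *Elovl6* held none of the motifs and that of *Acly* held GC boxes only.

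Expression was compared as log2(FPKM + 1), with FPKM the number of fragments scaled by transcript length and by library size. A difference is the cKO mean minus the control mean on this log2 scale, tested with limma over all 11590 rows with Benjamini-Hochberg adjustment. None of the 34 genes (0) and none of the tested rows (0, or 0%) had an adjusted p under 0.05, the smallest adjusted p in the table being 0.312. The direction was nevertheless shared by nearly all members. Of the 34 genes, 31 had a difference below 0, while 55.8% of all tested rows did. The median difference of the 34 genes was -0.24, compared with -0.02 over all tested rows. An unadjusted p under 0.05 with lower values in cKO was found for 8 of the 34 genes, against 7.76% of the tested rows, and with higher values for 0 of them, against 5.37%. In 4 genes every cKO library was below every control, against 11.8% of the tested rows, and in 0 genes was every cKO library above, against 6.51%. That count of 4 was near the background share.

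The shared direction came from some of the libraries. Relative to the control mean, the median of the 34 genes was -0.03, 0.09 and -0.06 in control replicates 1, 2 and 3. It was -0.02, -0.35 and -0.34 in cKO replicates 1, 2 and 3. The values of cKO replicate 1 thus sat among the controls, and those of cKO replicates 2 and 3 were lower. In 26 of the 34 genes cKO replicate 1 lay within the range of the controls, against 52.5% of the tested rows. In 28 of the 34 genes cKO replicates 2 and 3 were both below every control, against 24.3% of the tested rows. The log2 SD was larger among the cKO than among the control libraries in 28 genes, against 57.9% of the rows. Control replicate 2 stood at the other end, being the highest of the 6 libraries in 29 of the 34 genes, against 24.8% of the rows. The lowest library was cKO replicate 2 in 15 genes and cKO replicate 3 in 18. The 34 genes made up between 0.418% and 0.487% of all FPKM in the controls, 0.455% in cKO replicate 1, 0.345% in cKO replicate 2 and 0.355% in cKO replicate 3.

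**Figure D1:**
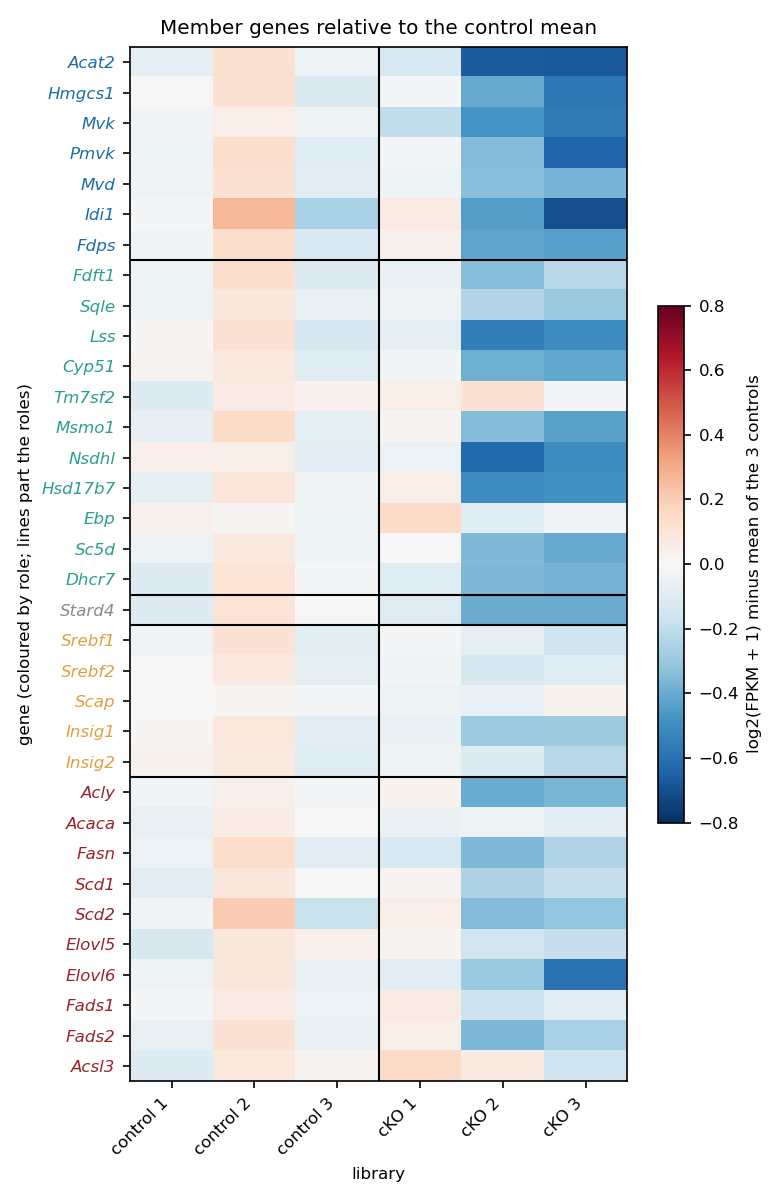
Rows are the 34 genes ordered by role (mevalonate, squalene to cholesterol, sterol transport, SREBP regulators, fatty acid synthesis), columns are the 6 libraries, and colour is log2(FPKM + 1) minus the mean of the 3 controls. The cKO replicate 1 column is pale like the controls, while cKO replicates 2 and 3 are blue in most rows, and *Tm7sf2*, *Ebp*, *Scap*, *Acaca* and *Acsl3* stay pale there.

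Without cKO replicate 1, 6 of the 34 genes had lower values with an adjusted p under 0.05 in limma, against 1.45% of the tested rows, and 24 had an unadjusted p under 0.05 with lower values, against 11.9%. The 6 genes were *Acat2*, *Mvk*, *Lss*, *Nsdhl*, *Hsd17b7* and *Acly*. The median difference of the 34 genes was then -0.34. As cKO replicate 1 was singled out by the values of these same genes, these counts do not test the difference between the groups. Other libraries moved the count of 8 the other way: it was 4 without control replicate 1 (against 4.84% of the rows) and 1 without any one of control replicate 2 (4.11%), cKO replicate 2 (4.88%) or cKO replicate 3 (3.81%). The number of genes without overlap, 4 with all libraries, was 8 without control replicate 1, 13 without control replicate 3 and 28 without cKO replicate 1. Fewer libraries overlap less often over the whole table too, in 17.9%, 19.4% and 24.3% of the rows for these settings. These counts are therefore to be read against those shares and not against the 4. Without control replicate 2, cKO replicate 2 or cKO replicate 3 the number was 4, 4 and 5. The shares of all rows for those settings are not given here.

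The targeted gene does not order the cKO libraries in this way. *Nell2* had an FPKM of 3.17, 2.59 and 1.88 in the controls and 5.64, 1.61 and 5.74 in cKO replicates 1, 2 and 3, so the gene-level value was not lower in the cKO group, and the cKO libraries with low sterol genes held both its lowest and its highest value. Gene-level FPKM does not separate the floxed part from the rest of the transcript. The paper reports deletion of NELL2 in calvarial preosteoblasts by qRT-PCR and western blotting, which are other measures than the FPKM used here. Directions in what follows are those of the libraries as labelled.

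In the mevalonate branch, all 7 genes had values below 0, against 55.8% of all tested rows. An unadjusted p under 0.05 in limma, with lower values, was found for 2 of them, against 7.76% of the rows. The median of the branch was -0.33. This median was farther from 0 than that from squalene to cholesterol with all libraries, but not without cKO replicate 3, where the medians were -0.1925 and -0.1946. *Acat2*, the cytosolic thiolase that joins acetyl-CoA units, had an FPKM of 68.33, 78.32 and 69.88 in the controls and of 66.01, 45.12 and 44.79 in the cKO libraries. All 3 cKO libraries were below the controls, cKO replicate 1 only just. The difference was -0.49 (standard error 0.16, adjusted p = 0.312 from limma), and cKO replicates 2 and 3 stood at 62.5% and 62.1% of the control mean. *Mvk*, the kinase of mevalonate, had 51.5, 54.16 and 51.04 in the controls and 45.43, 37.37 and 35.03 in the cKO libraries, with no overlap. Its difference was -0.41 (standard error 0.10, adjusted p = 0.312), the smallest unadjusted p among the 34 genes.

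The other 5 genes of the branch overlapped between the groups through cKO replicate 1. *Hmgcs1*, which makes HMG-CoA and carries the sterol regulatory element shown above, had 141.48, 152.63 and 129.93 in the controls and 139.36, 106.33 and 94.14 in the cKO libraries, a difference of -0.33 (standard error 0.15, adjusted p = 0.391). *Fdps*, farnesyl diphosphate synthase, was the most abundant sterol gene, with 348.69, 389.58 and 325.24 in the controls and 362.22, 263.99 and 260.95 in the cKO libraries. Its cKO replicate 1 was above 2 of the 3 controls, while the other cKO libraries stood at 74.5% and 73.6% of the control mean. *Idi1*, the isomerase of the isoprenoid unit, was the most variable of the branch. It ranged from 48.08 to 69.71 among the controls and from 35.12 to 60.52 among the cKO libraries, with a difference of -0.36 (standard error 0.21, adjusted p = 0.495). *Pmvk* and *Mvd*, the next enzymes after the kinase, had differences of -0.33 and -0.25, with adjusted p-values of 0.416 and 0.392 from limma.

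From squalene to cholesterol, 9 of 11 genes had values below 0, against 55.8% of all tested rows, with a median of -0.26. An unadjusted p under 0.05 in limma, with lower values, was found for 3, against 7.76% of the rows. *Nsdhl*, a sterol dehydrogenase that takes part in removing methyl groups from the ring, had an FPKM of 67.05, 67.22 and 61.2 in the controls and of 63.04, 41.88 and 45.54 in the cKO libraries. cKO replicate 1 lay between the controls, and the difference was -0.39 (standard error 0.15, adjusted p = 0.348). *Lss*, lanosterol synthase, had 36.64, 39.48 and 33.17 in the controls and 34.38, 24.43 and 25.5 in the cKO libraries, a difference of -0.38 (standard error 0.14, adjusted p = 0.339). *Dhcr7*, which reduces the last precursor to cholesterol, had 30.82, 35.83 and 32.94 in the controls and 30.88, 25.65 and 25.22 in the cKO libraries. The difference of *Dhcr7* was -0.28 (standard error 0.10, adjusted p = 0.329). In each of these 3 genes cKO replicate 1 overlapped the controls and the other cKO libraries did not.

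Among the remaining enzymes of this stretch, all but a pair had cKO replicates 2 and 3 below every control. *Hsd17b7*, the ketosteroid reductase of the pathway, had 15.47, 17.58 and 16.07 in the controls and 16.9, 11.25 and 11.38 in the cKO libraries, so its cKO replicate 1 was above 2 controls, with a difference of -0.31 (standard error 0.15). *Cyp51*, the lanosterol demethylase, had a difference of -0.28 (standard error 0.12), *Msmo1*, the methylsterol oxidase, of -0.26 (0.13), and *Sc5d*, a sterol desaturase, of -0.25 (0.11). *Fdft1*, squalene synthase, and *Sqle*, squalene epoxidase, which stand at the entry to the sterol-specific route, had -0.20 (0.10) and -0.19 (0.09). Adjusted p-values of these 6 genes lay between 0.381 and 0.435 in limma. *Ebp*, a sterol isomerase, had 67.51, 66.46 and 64.12 in the controls and 73.6, 61.51 and 64.8 in the cKO libraries, with a difference of 0.01 (standard error 0.08, adjusted p = 0.972). *Tm7sf2*, a sterol reductase, had 21.55, 24.35 and 23.83 against 24.01, 25.23 and 22.93, with a difference of 0.05 (standard error 0.07, adjusted p = 0.785). Both groups overlapped throughout for this pair. *Ebp* and *Nsdhl* lie on the X chromosome, and Y-linked *Ddx3y* was above 1 FPKM in control replicate 3 and cKO replicates 1 and 3. With this as a covariate the differences of *Nsdhl* and *Ebp* were -0.43 and -0.01.

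*Stard4*, which carries cholesterol between membranes inside the cell, had an FPKM of 15.84, 18.52 and 17.07 in the controls and 15.96, 12.75 and 12.75 in the cKO libraries. Its cKO replicate 1 lay within the controls, and the difference was -0.30 (standard error 0.10, adjusted p = 0.329 from limma).

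**Figure D2:**
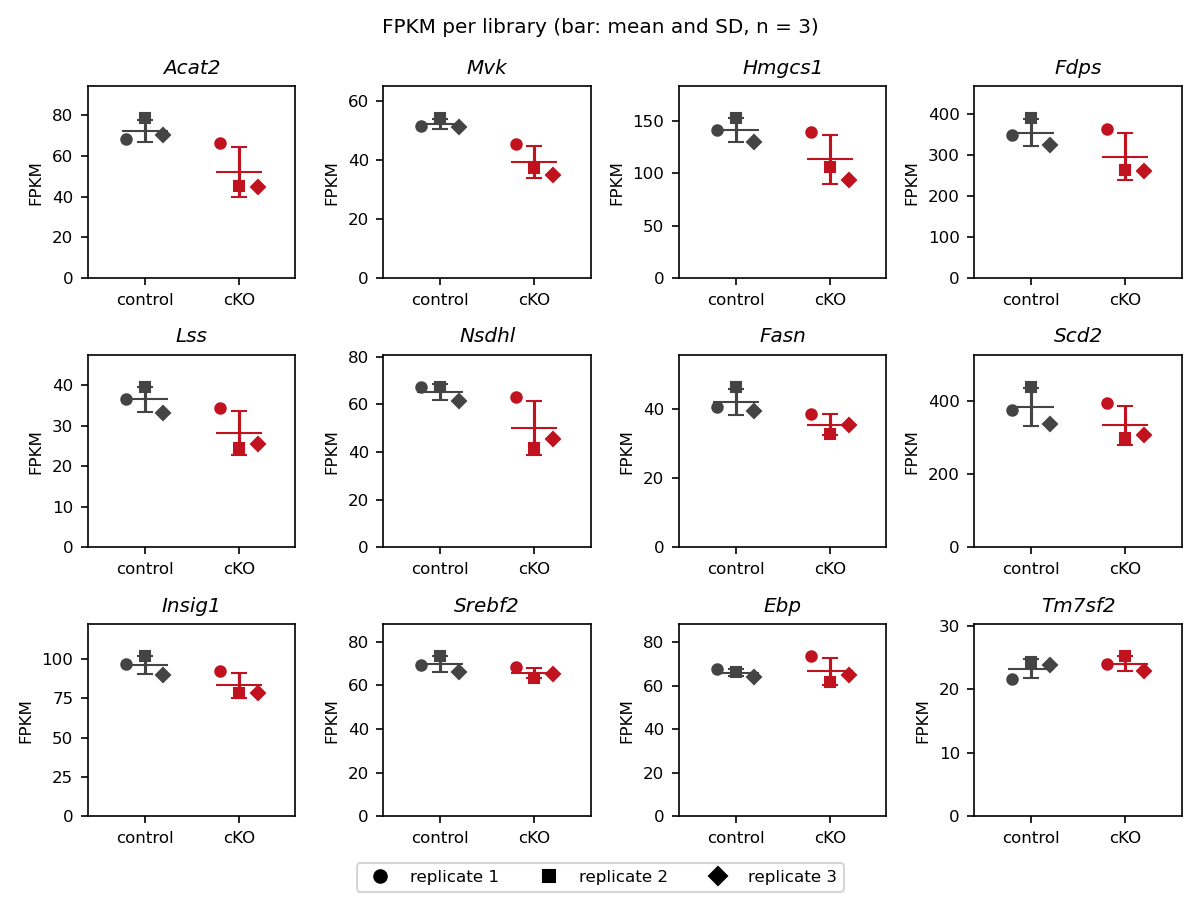
FPKM of 12 of the genes in each library (vertical axes from 0, with a scale for each gene), with the marker shape giving the replicate number and the bars the mean and SD of 3 libraries. Circles of the cKO group (replicate 1) stand at or near the controls, and the cKO squares and diamonds lie lower for *Acat2*, *Hmgcs1*, *Lss* and *Nsdhl*. For *Ebp* only the cKO square lies below every control, and for *Tm7sf2* neither the square nor the diamond does.

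The SREBP regulators had the smallest median difference of the 4 roles, at -0.08, with all 5 below 0 (against 55.8% of all tested rows). An unadjusted p under 0.05 in limma was found for 0 of them, against 7.76% of the rows with lower and 5.37% with higher values. *Srebf2*, whose product is the main driver of sterol genes, had an FPKM of 69.23, 73.38 and 66.05 in the controls and 68.41, 63.55 and 64.98 in the cKO libraries. *Srebf1*, whose product favours fatty acid genes, had 28.1, 31.12 and 26.85 against 28.36, 27.04 and 25.54. The differences were -0.08 (standard error 0.07) and -0.08 (standard error 0.08), with adjusted p-values of 0.612 and 0.652 from limma. *Scap*, the escort of the SREBP factors, had the smallest spread of the 34 genes in the controls, at 18.48, 18.71 and 18.25, and had 17.91, 17.74 and 18.85 in the cKO libraries (difference -0.02, standard error 0.06).

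*Insig1*, itself a known SREBP target, had 96.6, 101.81 and 90.05 in the controls and 92.62, 78.22 and 78.64 in the cKO libraries, the order of libraries seen in the enzymes. Its difference was -0.21 (standard error 0.09, adjusted p = 0.381). *Insig2*, which is less dependent on SREBP, had 17.67, 18.28 and 16.12 against 16.85, 15.96 and 14.75, a difference of -0.12 (standard error 0.08, adjusted p = 0.515). In FPKM, *Insig1* exceeded *Insig2* by 5.54 ± 0.0646 times in the controls and 5.24 ± 0.308 times in cKO (SD, n = 3), and *Srebf2* exceeded *Srebf1* by 2.43 ± 0.0600 and 2.44 ± 0.0991 times. Those ratios are descriptions and were not tested.

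Of the 10 fatty acid genes, 9 had values below 0, against 55.8% of all tested rows, with a median of -0.16. An unadjusted p under 0.05 in limma, with lower values, was found for 2, against 7.76% of the rows. *Fasn*, fatty acid synthase, had an FPKM of 40.6, 46.3 and 39.28 in the controls and 38.45, 32.62 and 35.36 in the cKO libraries. The groups did not overlap, by a margin of less than 1 FPKM at cKO replicate 1, and the difference was -0.24 (standard error 0.09, adjusted p = 0.349). *Elovl6*, which elongates palmitate, had 14.72, 16.13 and 14.46 against 14.16, 12.08 and 9.62, again without overlap by less than 1 FPKM at cKO replicate 1. Its difference was -0.33 (standard error 0.13, adjusted p = 0.366). *Acly*, which makes cytosolic acetyl-CoA from citrate and so feeds both routes, had 99.32, 103.71 and 99.95 in the controls and 102.94, 76.41 and 78.03 in the cKO libraries. Its difference was -0.25 (standard error 0.12, adjusted p = 0.422). With 1 library left out the difference ran from -0.38 (without cKO replicate 1) to -0.17, and the adjusted p in limma from 0.0420 to 0.750.

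*Scd1* and *Scd2*, desaturases that make monounsaturated fatty acids, differed in level more than in response. *Scd2* had 373.08, 436.71 and 335.33 in the controls and 393.53, 298.29 and 306.09 in the cKO libraries, the highest mean of the 34 genes, and *Scd1* had 81.2, 92.38 and 86.41 against 87.68, 72.91 and 75.88. Their differences were -0.20 (standard error 0.14) and -0.14 (standard error 0.09), and the ratio of *Scd2* to *Scd1* was 4.40 ± 0.455 in the controls and 4.20 ± 0.247 in cKO (SD, n = 3). Reads of such close paralogs could be shared between them, and how the counting treated this is not given in the sources used here. *Fads2* and *Fads1*, desaturases of polyunsaturated fatty acids, had differences of -0.19 (standard error 0.12) and -0.06 (standard error 0.08). *Elovl5*, which elongates polyunsaturated chains, had -0.10 (0.09). *Acaca*, acetyl-CoA carboxylase, had 10.92, 11.95 and 11.42 against 10.99, 11.1 and 10.71, the lowest mean of the 34 genes and a difference of -0.06 (standard error 0.06). *Acsl3*, which activates long-chain fatty acids, had a difference of 0.02 (standard error 0.10, adjusted p = 0.946), with cKO replicate 1 the highest of the 6 libraries at 27.76.

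**Figure D3:**
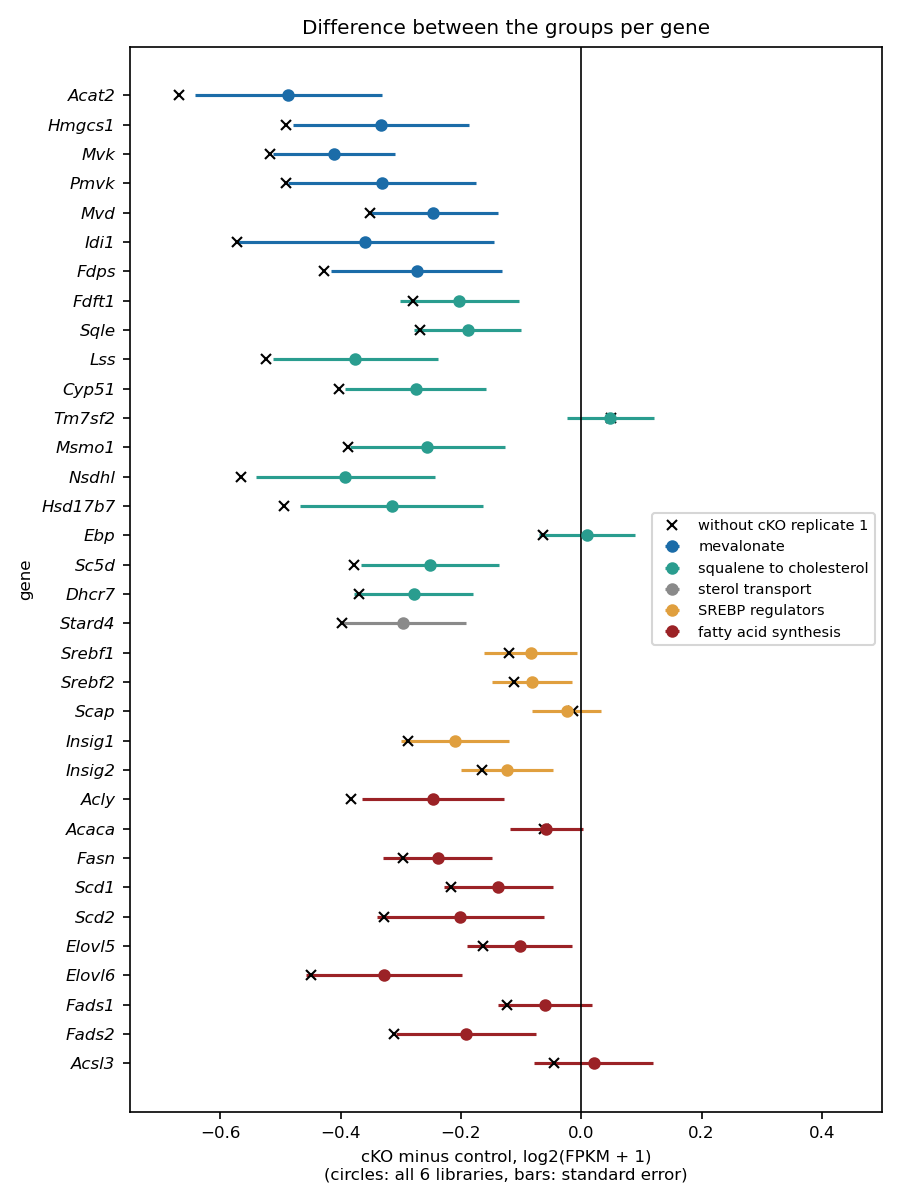
Circles show the difference (cKO minus control, log2(FPKM + 1)) of each of the 34 genes with all 6 libraries, coloured by role, bars show its standard error, and crosses show the difference without cKO replicate 1. The mevalonate genes lie between -0.49 and -0.25 and the SREBP regulators between -0.21 and -0.02, and crosses lie to the left of most circles.

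**Figure D4:**
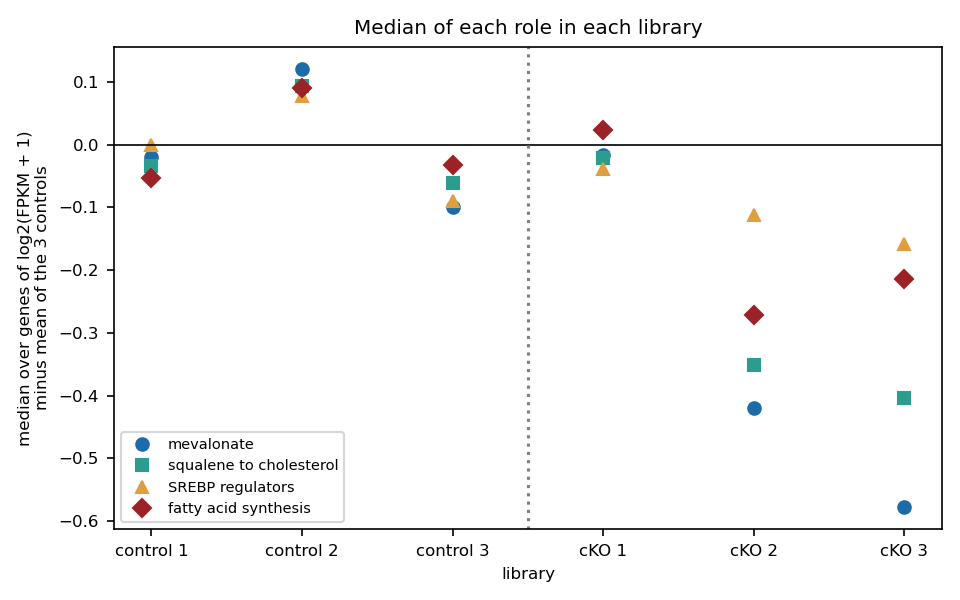
The median over the genes of each role of log2(FPKM + 1) minus the control mean is plotted for each of the 6 libraries, with controls left of the dotted line. In cKO replicate 3 the medians are -0.58 for mevalonate genes, -0.40 from squalene to cholesterol, -0.16 for the SREBP regulators and -0.21 for fatty acid synthesis, whereas in cKO replicate 1 they lie between -0.04 and 0.02.

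Further genes of the pathway, in 4 lists drawn up by role with earlier results of these data known, were read beside the 34. Of 72 genes, 71 were in the table and 61 passed the filter, and 0 had an adjusted p under 0.05 in limma. An unadjusted p under 0.05 was found for 3 with lower values (4.92%, against 7.76% of all tested rows) and 5 with higher values (8.2%, against 5.37%), shares near the background, and the median difference was -0.03. The genes named from these lists are therefore given as single values. The list of other sterol and isoprenoid enzymes had 12 of 14 tested genes below 0 (against 55.8% of all tested rows), with a median of -0.06. In 7 of the 14, cKO replicates 2 and 3 were below every control, against 24.3% of the tested rows. In it, *Pdss1*, for the isoprenoid tail of ubiquinone, had an FPKM of 2.96, 3.05 and 3.5 in the controls against 2.02, 2.76 and 2.46 (difference -0.29), with its lowest value in cKO replicate 1, the lowest library in 0 of the 34 genes.

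Genes of sterol uptake, storage and efflux went both ways, with 6 of 14 tested below 0 (against 55.8% of all tested rows) and a median of 0.04. *Scarb1*, the HDL receptor, had an FPKM of 48.41, 46.9 and 42.11 in the controls against 42.89, 36.84 and 34.61, a difference of -0.26 (standard error 0.10, adjusted p = 0.342). *Vldlr*, a receptor of triglyceride-rich lipoproteins, was in the opposite direction with 4, 3.37 and 5.24 against 4.86, 10.68 and 10.69. Its difference was 0.85 (standard error 0.28, adjusted p = 0.317). With 1 library left out its adjusted p in limma ran from 0.0273 (without cKO replicate 1) to 0.685. *Soat1*, which esterifies cholesterol for storage, had 16.91, 16.91 and 19.16 against 19.43, 21.2 and 22.17, without overlap (difference 0.23, standard error 0.08, adjusted p = 0.321). *Nr1h3*, the sterol sensor LXRα, had 1.03, 1.26 and 1.34 against 1.84, 1.56 and 1.43, also without overlap (difference 0.24, standard error 0.09, adjusted p = 0.338).

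The genes for SREBP cleavage and turnover had a median difference of -0.01, with 8 of 11 below 0 (against 55.8% of all tested rows). An unadjusted p under 0.05 in limma was found for 0 of them, against 7.76% of the rows with lower and 5.37% with higher values. Other fatty acid and glycerolipid genes had a median of -0.04, with 13 of 22 tested below 0 (against 55.8% of all tested rows). At an unadjusted p under 0.05 in limma, 0 had lower values, against 7.76% of the rows. Higher values were found for 2 (9.09%, against 5.37% of the rows). The 2, named after their values were seen, were *Dgat2*, which makes triglycerides, with an FPKM of 5.01, 5.21 and 4.55 in the controls and 5.26, 6.68 and 8.78 in the cKO libraries, and *Mid1ip1*, an activator of acetyl-CoA carboxylase, with 24.29, 26.47 and 24.44 against 27.82, 27.97 and 28.06.

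Markers of other cells and of stress were read in the same 6 libraries. The cultures carried osteoblast markers at a summed FPKM of 17660 to 18506 in the controls and 18116 to 18334 in cKO, most of it *Col1a1* and *Col1a2*. None of the 8 markers was at 0. Lower values with an unadjusted p under 0.05 in limma were found for 4 of the 8 (against 7.76% of the tested rows), *Sp7*, *Alpl*, *Ibsp* and *Bglap*. Each was without overlap (against 11.8% of the rows), and cKO replicate 1 was low in them too. *Alpl*, the tissue-nonspecific alkaline phosphatase, had 36.44, 33.08 and 25.15 against 23.09, 22.65 and 22.03. The other markers, *Runx2*, *Col1a1*, *Col1a2* and *Spp1*, had differences of -0.21, -0.01, 0.04 and 0.12. For adipocyte markers, 8 of 10 were in the table and 5 passed the filter. The sum of the 8 was 36.3 to 53.8 in the controls and 77.3 to 122 in cKO. *Fabp4* led that sum, with 13.91, 19.79 and 22.45 against 49.33, 85.35 and 53.6 FPKM. The other tested markers, *Pparg*, *Lpl*, *Cebpa* and *Cd36*, had differences of 0.35, 0.46, 0.02 and 0.08. *Adipoq*, *Plin1* and *Cidec*, markers of mature adipocytes, were at or under 0.39 FPKM in every library. The sum of the 8 macrophage markers, most of it *Lyz2*, was 33.5 to 91.3 in the controls and 46.7 to 74.3 in cKO, lowest in control replicate 2. Of the 5 tested, 1 had a difference below 0, against 55.8% of all tested rows, and the median was 0.24. The groups overlapped in each of the 5. An unadjusted p under 0.05 in limma was found for 0 of them, against 7.76% of the rows with lower and 5.37% with higher values. The 1 below 0 was *Csf1r*, with 1.22, 0.93 and 1.31 against 0.84, 0.9 and 1.24. The 5 endothelial markers summed to 1.84 to 3.87 and 1.84 to 3.40, and the 6 muscle markers to 33.0 to 64.3 and 45.9 to 52.2. The 4 epithelial markers summed to 0.460 to 13.2 in the controls and 15.9 to 42.5 in cKO, and *Krt18* was highest in cKO replicate 1 (21.91), where the sterol genes were at the level of the controls. In bulk RNA, fewer cells of a type and less RNA per cell cannot be told apart.

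*Trib3*, a target of the ATF4 stress response, had an FPKM of 7.71, 6.6 and 13.37 in the controls and 16.68, 51.38 and 50.95 in cKO replicates 1, 2 and 3. *Vegfa*, a hypoxia target, had 21.82, 25.68 and 25.16 against 29.28, 44.46 and 48.61, and *Mki67*, a marker of dividing cells, had 7.88, 9.83 and 7.04 against 6.8, 4.15 and 3.86. These 3 genes were picked after their values were known. In all 3, cKO replicates 2 and 3 lay farther from the controls than cKO replicate 1 did. Unlike in most of the 34 genes, cKO replicate 1 was itself outside the range of the controls, on the same side. The part of these 3 genes in the result was not tested.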

How the data were processed

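RNA was sequenced on an MGISEQ-2000 as 150 bp paired-end reads from 3 control and 3 cKO libraries. The authors mapped the reads to the mouse transcriptome with HISAT2 (GRCm38 in the submitters' processing notes) and deposited FPKM values per gene symbol, rounded to 2 decimals; normalization was by DESeq per the methods, and the annotation and the FPKM program are not given in the sources used here. FPKM is not a count, so no count test was run, and depth and counting error are unknown. Library totals of FPKM ranged from 573307 to 606428.

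Values were taken as log2(FPKM + 1), which understates changes of low genes, over the 11590 rows in which 3 or more libraries reached an FPKM of 1. The 2 groups were compared with limma 3.58.1 in R 4.3.3 (lmFit, eBayes, Benjamini-Hochberg adjustment over all tested rows), and the fit was tested on simulated data. Groups came from the sample titles. The members and lists were chosen with earlier results of these data known. Named are all 34 members, the 3 higher and 3 lower further pathway genes with the smallest p, *Nell2*, and markers by list. Some further pathway genes under this rule are not reported here. *Dgat2*, *Mid1ip1*, *Ddx3y*, *Trib3*, *Vegfa* and *Mki67* were named outside it, after their values were seen. The listed genes *Faxdc2*, *Lep* and *Retn* were not analysed here. Alternatives were the pseudocount (0.1), the filter, a variance trend, median-ratio scaling, a replicate block, a Y-linked covariate and leaving out each library.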

Additional observations from a re-analysis of the deposited data

How the results depend on the processing

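With all 6 libraries, the number of members with an adjusted p under 0.05 was 0 under every alternative of pseudocount, filter, trend, scaling, replicate block and covariate, and the number with an unadjusted p under 0.05, 8 as reported, was 6 to 12. Median-ratio scaling left 2 members without overlap in place of 4, with *Fasn* and *Elovl6* no longer among them. Leaving out 1 library gave 0 to 324 tested rows with an adjusted p under 0.05 and 852 to 2461 with an unadjusted p under 0.05. For the members these counts were 0 to 6 and 1 to 24, and 4 to 28 were without overlap, the highest value of each count coming without cKO replicate 1. The role medians stayed below 0 in all 13 alternatives. With 1 library left out they ran from -0.49 to -0.19 for mevalonate genes, -0.38 to -0.19 from squalene to cholesterol, -0.13 to -0.04 for the regulators and -0.26 to -0.10 for fatty acid synthesis. Of the 34 single differences, those of 3 genes near 0 changed sign: *Tm7sf2* to -0.0029 without control replicate 1 (range with 1 library left out -0.0029 to 0.0816), *Ebp* to -0.0078 with the Y-linked covariate, -0.0114 without control replicate 3 and -0.0634 without cKO replicate 1 (range -0.0634 to 0.0641), and *Acsl3* to -0.0314, -0.0451 and -0.0043 without control replicate 1, cKO replicate 1 and cKO replicate 2 (range -0.0451 to 0.1121). The cause was not tested.

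Same-numbered libraries share only a number: deviations from the group means of same-numbered pairs correlated between -0.166 and 0.210 across genes. With the replicate block, 8 members had an unadjusted p under 0.05 and 0 an adjusted one, and 1465 and 0 of all rows did. Without counts, the counting error of genes with low FPKM cannot be given.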
